A study of Mus musculus with 2 samples.

Results

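Glutathione transferases were described across the deposited single-cell table of fetal mouse intestine: Gsta1 and Gsta4 of the alpha class, Gstm1 and Gstm3 of the mu class, and Gstp1 and Gstp2 of the pi class. These 6 genes were taken by name from the 25663 gene columns, and all 6 had a column. Cells were grouped by the level of Fabp1 (below 40, 40 to 100, above 100), of Fabp6 (below 10, 10 to 50, above 50) and of the sum of Reg1 and Ctrb1 (below 1, 1 to 20, above 20). The table held 11871 cells from small intestine epithelium sorted at day E18.5 of gestation. It came from 1 library of Control (wild-type) cells and 1 of Tet3 knockout cells, and 2 embryos of strain C57BL6/J were pooled for each. The Tet3 allele lacked exon 5 and was made by targeting stem cells of (C57BL6/J x C3H/HeJ)F1 origin, and the line was backcrossed to C57BL6/JRccHsd for at least 5 generations. Cells were fixed in 90% methanol before 3′ droplet sequencing.

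Glutathione transferases join glutathione, a small thiol, to reactive electrophiles, which makes these more soluble and ready for export. The alpha, mu and pi classes are soluble enzymes that work as dimers, and many are induced through the factor Nfe2l2 (NRF2). The small intestine is a main site of this conjugation, since its enterocytes meet dietary and biliary electrophiles first. Fabp1 encodes the liver-type fatty acid binding protein of absorptive enterocytes, Fabp6 the bile acid binding protein of the ileum, Reg1 a secreted regenerating-family lectin and Ctrb1 the digestive enzyme precursor chymotrypsinogen B.

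Each barcode carried a suffix. Cells with suffix 0 (5933) are written set 0, and those with suffix 1 (5938) set 1. No label tied a suffix to a genotype, so neither set was given one, no effect of Tet3 was computed, and a 3′ tag outside the deleted exon could not check the labels. Of set 1, 818 cells carried barcodes that set 0 also carried and were left out, which left 5120 cells. The cells of set 0 with those barcodes were kept. The median cell held 23657 UMIs (unique molecular identifiers, each counting 1 captured transcript) in set 0 and 22374 in set 1. These totals were recovered from the scaled values. The sample labels record 10000 reads per cell for both libraries, which is below these medians, and this difference was not resolved. Levels are mean signal per cell on a scale of 10000 per cell (CP10K). With 1 library per group, differences were described by their size and no p-value was computed, and intervals cover counting error only. The epithelial markers Epcam and Cdh1 summed to 14.2 CP10K in set 0 and 13.8 in set 1, whereas Cd74 and Lyz2, the 2 of 4 listed immune markers with a column, summed to 0.00568 and 0.000513, and the 4 mesenchymal markers to 0.039 and 0.155.

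The pi-class pair was examined first, because a 3′ tag can only be assigned where transcripts differ. Gstp1 lies at chr19:4035407-4037985 and Gstp2 at chr19:4040285-4046023, both on the minus strand of GRCm38. Their coding sequences of 633 bases differed at 12 positions (98.1% identity), none of them within the last 300 coding bases. The last differences lay in coding bases 301 to 360, shown here in transcript direction from the GENCODE transcripts with the differing bases in capitals.
Gstp1: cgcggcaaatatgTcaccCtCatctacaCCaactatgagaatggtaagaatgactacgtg
Gstp2: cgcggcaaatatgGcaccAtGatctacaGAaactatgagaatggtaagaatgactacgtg
Counted from the first coding base of Gstp1, the 5 changes in this stretch were T314G, C319A, C321G, C329G and C330A. The last 90 coding bases, nearest to where a 3′ tag falls, were the same in both genes and so carry no capitals.
Gstp1: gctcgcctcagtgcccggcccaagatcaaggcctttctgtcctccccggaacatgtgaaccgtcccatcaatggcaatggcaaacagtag
Gstp2: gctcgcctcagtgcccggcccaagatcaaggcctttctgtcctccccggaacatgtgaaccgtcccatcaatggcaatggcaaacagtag

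The mu-class genes were far less alike. Gstm1 (chr3:108012255-108017973) and Gstm3 (chr3:107963696-107969283), both on the minus strand, differed at 69 of 657 coding bases (89.5% identity). Of these differences, 16 fell in the last 90 coding bases, in capitals here.
Gstm1: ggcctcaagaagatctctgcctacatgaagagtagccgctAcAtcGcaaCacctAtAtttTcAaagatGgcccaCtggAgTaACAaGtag
Gstm3: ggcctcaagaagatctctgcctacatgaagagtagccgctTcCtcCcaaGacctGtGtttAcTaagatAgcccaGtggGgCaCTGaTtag
Gsta1 (chr9:78230656-78242684, plus strand) had a near-identical neighbour, Gm3776 (chr9:78257129-78269166, plus strand), with 2 differences in 672 coding bases. Gsta4 (chr9:78182774-78209349, plus strand) lay in the same cluster.

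Every stretch of 91 bases, the length of the sequenced insert, was then read from the last 400 bases of each transcript and searched in all transcripts. Of 310 such stretches, 279 of Gstp1 (90.0%) and all 310 of Gstp2 were also found in another gene. Gstp1 and Gstp2 shared 279 with each other, and the pseudogene Gstp-ps held 213 of those of Gstp1 and 244 of those of Gstp2. Gsta1 shared 218 stretches (70.3%) with Gm3776. Gsta4, Gstm1 and Gstm3 shared none, so their tags in this stretch named 1 gene.

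Fractions of a UMI were frequent in the same genes. Within a cell, nearly all values are whole multiples of what 1 UMI is worth, and a counter that divides a UMI between genes leaves values between them. Values more than 0.01 from a whole number made up 29.6% of the non-zero values of Gstp1 in set 0 and 10.9% in set 1, and 40.1% and 56.9% of those of Gstp2. For Gsta1 they were 39.2% and 40.3%, and for its copy Gm3776 69.4% and 71.1%. In Gstm1 and Gstm3 they stayed between 0.527% and 2.18%, and Gsta4 had none.

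The split between Gstp1 and Gstp2 fell mostly on a few fixed ratios in set 0 and mostly on 0 in set 1. Of the 5415 cells of set 0 with at least 10 UMIs of the pair, 1645 (30.4%) had none assigned to Gstp2, 2464 (45.5%) had exactly 0.5 of them there (within 0.001), and 190 (3.51%) had all of them there. Of 4600 such cells in set 1, 3914 (85.1%) had none, 267 (5.80%) had 0.5 and 16 had all. The remaining 1116 cells of set 0 (20.6%) and 403 of set 1 (8.76%) had another share, most of which in set 0 lay close to 0 or 1. Over all cells of a set, Gstp2 took 26.4% of the pair's summed UMIs in set 0 and 3.61% in set 1. The mean of Gstp2 was 3.59 CP10K in set 0 and 0.595 in set 1, that of Gstp1 8.95 and 13.5, and their sum 12.5 and 14.0. The gap in Gstp2 between the sets thus stood beside a sum that differed far less. Since most 3′ stretches do not tell the genes apart, the results below use their sum, written Gstp1+Gstp2.

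**Figure D1:**
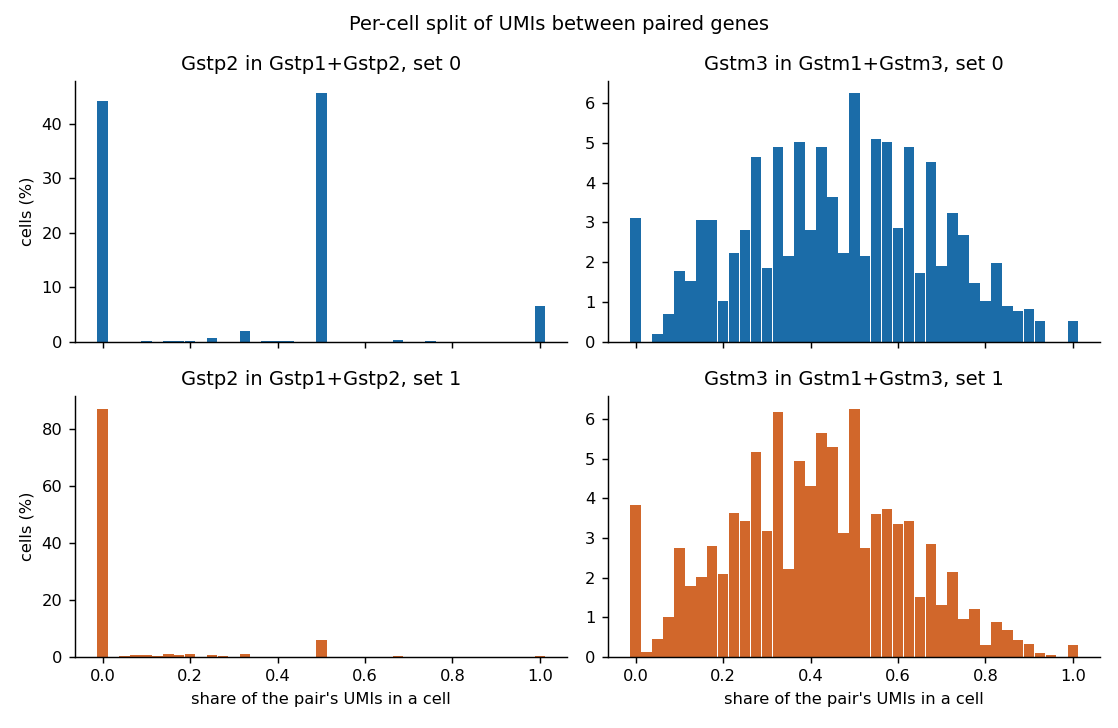
Share of a pair's UMIs assigned to 1 gene in each cell, as a percentage of cells in bins 0.025 wide, for Gstp2 within Gstp1+Gstp2 (left, cells with at least 10 UMIs of the pair) and Gstm3 within Gstm1+Gstm3 (right, at least 6 UMIs), in set 0 (top) and set 1 (bottom). In set 0 the Gstp2 share stands mostly at or next to 0, 0.5 and 1, and in set 1 mostly at 0 (no Gstp2 in 85.1% of cells) with low shares spread between, whereas the Gstm3 share spreads over the whole range.

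For the mu-class pair the split was spread over the whole range. Of 1570 cells of set 0 with at least 6 UMIs of Gstm1 and Gstm3, 49 had no Gstm3 and 96 had a share of 0.5. Over all cells Gstm3 took 45.2% of the pair's UMIs in set 0 and 40.5% in set 1. For Gm3776 within Gsta1+Gm3776 the share was 17.2% and 16.6%, about the same in both sets.

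Over all cells Gstp1+Gstp2 was the most abundant of the transferases followed here. Its 10th, 50th and 90th percentile over cells were 5.41, 11.5 and 21 CP10K in set 0 and 5.04, 12.7 and 25 in set 1. Gsta1 had a mean of 1.06 CP10K in set 0 and 1.46 in set 1, with medians of 0.360 and 0.580. Gstm1 was at 1.03 and 2.26, Gstm3 at 0.864 and 1.55, and Gsta4, an alpha-class enzyme known for its activity toward aldehydes from lipid peroxidation, at 0.362 and 0.363. As a ratio of means, Gstm1 was thus the member that differed most between the sets once the pi-class copies were summed, and Gsta4 the one that differed least. The sets hold different cells: 1108 cells of set 0 and 27 of set 1 had Fabp6 above 50. Within the cells with Fabp6 below 10 and Fabp1 above 100, Gstm1 was at 0.965 CP10K in set 0 (2546 cells) and 2.10 in set 1 (2588 cells). Fabp1 still differed there: 1069 of these cells in set 0 and 399 in set 1 had a Fabp1 of 300 to 400. In narrower ranges of Fabp1, Gstm1 was at 2.17 in set 0 and 3.52 in set 1 at 100 to 150. It was at 2.13 and 2.58 at 150 to 200, 1.16 and 1.62 at 200 to 300, and 0.593 and 1.37 at 300 to 400.

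Along Fabp1, Gstm1, Gstm3 and Gstp1+Gstp2 were highest in the middle. In cells with Fabp6 below 10, Gstm3 stood at 0.845 CP10K where Fabp1 was below 40, 2.92 where it was 40 to 100 and 0.896 where it was above 100, in set 0 (1319, 243 and 2546 cells). In set 1 (1729, 546 and 2588 cells) it stood at 1.17, 3.13 and 1.55. Gstm1 took the same course, at 1.12, 2.70 and 0.965 in set 0 and 2.04, 3.78 and 2.10 in set 1. In both sets the middle group was the highest of the 3 for both genes. For Gstm1 in set 1 the outer groups lay close together, at 2.06 summed UMIs per 10000 (95% Poisson interval 2.01 to 2.10) and 2.15 (2.11 to 2.18), against 3.66 (3.56 to 3.76) in the middle.

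Gstp1+Gstp2, at 15.2, 19.1 and 11.3 CP10K in set 0 and 15.8, 19.4 and 12.1 in set 1, was also highest in the middle, but with a smaller range, and lowest where Fabp1 was highest. Its cells overlapped widely: the 10th to 90th percentile ran from 11.4 to 27.1 in the middle group of set 0 and from 4.80 to 19.3 in the group above 100. Taken singly, Gstp1 followed this course in both sets (11.8, 15.0 and 7.83 CP10K in set 0). Gstp2 was flatter, at 3.41, 4.11 and 3.49 in set 0 and 0.528, 0.556 and 0.639 in set 1. Gsta4 was at 0.204, 0.321 and 0.274 in set 0 and at 0.263, 0.381 and 0.402 in set 1. Both Gstp2 and Gsta4 were thus highest in the middle group in set 0 only.

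As log2 ratios of the middle over the low group, Gstm3 was at 1.78 in set 0 and 1.41 in set 1, Gstm1 at 1.27 and 0.88, Gsta1 at 1.47 and 0.84, and Gstp1+Gstp2 at 0.33 and 0.30. At a 2-fold limit, 3 of the 6 members were higher in set 0 (Gsta1, Gstm1 and Gstm3) and 1 in set 1 (Gstm3), where 1.86% and 1.48% of all genes measured were that much higher. All 6 members passed the level needed to be measured (a mean of 0.2 CP10K in 1 or both groups) in every comparison made here. Of the middle over the high group, the ratios were 1.69 and 1.01 for Gstm3, 1.48 and 0.84 for Gstm1 and 0.76 and 0.68 for Gstp1+Gstp2. Here 2 members (Gstm1 and Gstm3) were at least 2-fold higher in set 0 and 1 (Gstm3) in set 1, beside 8.48% and 1.97% of all genes. The call in set 1 was lost with summed UMIs or a pseudocount of 0.1. These middle-group ratios were added after the levels had been seen.

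Levels were also read in finer ranges of Fabp1. In set 0 Gstm1 rose from 0.967 CP10K below a Fabp1 of 2 to 3.14 at 70 to 100, and was at 0.599 above 400. In set 1 it rose from 1.43 to 3.91 at 70 to 100 and was at 1.26 above 400, in 26 cells. Gstm3 peaked at 2.97 in the range 70 to 100 in set 0 and at 3.16 in the range 40 to 70 in set 1. By mean CP10K, Gstp1+Gstp2 peaked at 19.5 in the range 40 to 70 in set 0. In set 1 it peaked at 20.5 in the range 20 to 40. The neighbouring ranges lay within 1 CP10K of these maxima. With summed UMIs, its maximum in set 1 moved to 40 to 70, the range where Gstm3 peaked. It was 19.96 per 10000 there (19.65 to 20.28), against 19.59 (19.26 to 19.92) at 20 to 40. Counting intervals of Gstm3 at 40 to 70 and 70 to 100 also overlapped in both sets. The order of the peaks along Fabp1 was thus not resolved.

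**Figure D2:**
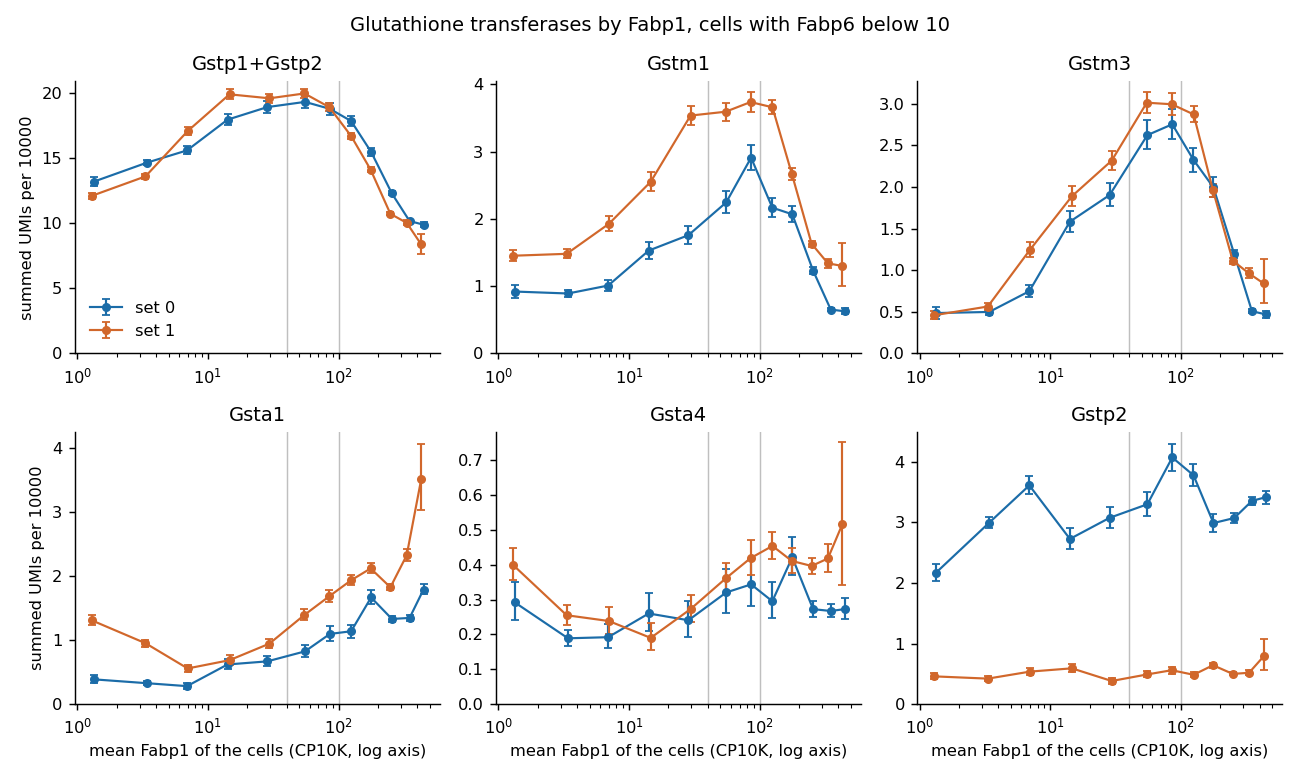
Summed UMIs per 10000 of 5 transferase readouts and of Gstp2 alone (vertical axes, from 0) in 12 ranges of Fabp1, placed at the mean Fabp1 of their cells (CP10K, log axis), for cells with Fabp6 below 10 in set 0 (blue) and set 1 (orange). Bars are 95% Poisson intervals and grey lines mark Fabp1 of 40 and 100. Gstm1, Gstm3 and Gstp1+Gstp2 rise to a maximum in the middle and fall above 100, Gsta1 is higher at high Fabp1 than at a Fabp1 of 5 to 10, and Gstp2 alone separates the sets at every range.

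Other features moved along the same axis. The share of cells with Mki67 plus Top2a of 2 or more, a gate for dividing cells, fell from 37.2% below a Fabp1 of 2 to 0.837% at 200 to 300 in set 0, and from 22.4% to 0.334% in set 1. The share of cells with Reg1+Ctrb1 of 1 or more was highest at a Fabp1 of 70 to 100, at 31.1% in set 0 and 25% in set 1, close to the maxima of Gstm1 and Gstm3. In cells with both Fabp6 below 10 and Reg1+Ctrb1 below 1, a choice made after the data were seen, Gstm1 was at 1.08 CP10K below a Fabp1 of 40, 2.40 at 40 to 100 and 0.819 above 100 in set 0, and at 1.99, 3.75 and 1.96 in set 1. Gstm3 was at 0.748, 2.43 and 0.669 in set 0, and at 1.05, 2.86 and 1.32 in set 1. The middle group was the highest of the 3 for both genes in both sets. Outside the gates for goblet, endocrine and dividing cells, Gstm3 in cells with Fabp6 below 10 was at 0.943, 3.04 and 0.901 in set 0 and at 1.22, 3.15 and 1.55 in set 1.

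Gsta1, the alpha-class enzyme with broad conjugating activity, was lower where Fabp1 was low. In cells with Fabp6 below 10 it was at 0.346, 0.977 and 1.40 CP10K from the low to the high Fabp1 group in set 0, and at 0.796, 1.43 and 1.90 in set 1. The order of the groups was the same in both sets, and the counting intervals did not overlap. The log2 ratio of the high over the low group was 1.99 in set 0 and 1.25 in set 1. Gsta1 was the 1 member at least 2-fold higher in this comparison in each set, beside 8.87% and 5.3% of all genes. Over all cells, whatever their Fabp6, the ratios were 1.07 and 1.16, and again 1 of 6 members was called higher, beside 4.94% and 5.2%, although summed UMIs took the ratio of set 0 under 2-fold. Added to its copy, Gsta1+Gm3776 gave 1.97 and 1.12 within Fabp6 below 10. In set 1 Gsta1 was also at 1.05 CP10K in the 312 cells with Fabp1 below 2 and at 0.505 in those with 5 to 10, so the rise began from a minimum. In dividing cells Gsta1 was at 0.179 CP10K in set 0 (450 cells) and 0.371 in set 1 (394 cells).

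Along Fabp6, Gsta4 stood out among the members. It was at 0.254 CP10K below 10, 0.469 at 10 to 50 and 0.690 above 50 in set 0 (4108, 717 and 1108 cells), and at 0.350, 0.560 and 0.878 in set 1 (4863, 230 and 27 cells). Both sets gave the same order, with summed UMIs per 10000 of 0.268, 0.460 and 0.669 in set 0 and counting intervals that did not overlap (0.641 to 0.699 in the highest group). In set 1 the highest group rested on 67 UMIs of Gsta4, at 1.04 per 10000 (0.807 to 1.32). The log2 ratio of the highest over the lowest group was 1.41 in set 0 and 1.30 in set 1. Where Fabp1 was at least 40, it was 1.13 and 1.12. This limit removes cells low in both genes, but also 476 of the 1108 cells of set 0 with Fabp6 above 50. The 632 left had Gsta4 at 0.622 CP10K.

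After each cell was thinned to 8000 UMIs, 37.6% of cells with Fabp6 above 50 held a UMI of Gsta4 in set 0 (63.7% unthinned), against 16.2% (36.0% unthinned) with Fabp6 below 10. The dividing cells, the named gate with least Gsta4, held one in 9.64% after thinning, with a median of 24814 UMIs against 23378 in the group with Fabp6 above 50. No cell type known to lack Gsta4 was set aside in these data, so the share that free RNA would give was not measured.

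Gstm3 was lower at Fabp6 above 50 than below 10, at 0.601 against 0.999 CP10K in set 0 and 0.877 against 1.59 in set 1, and Gstp1+Gstp2 was at 11.5 against 13.0 and 10.0 against 14.2. Gstm1 was at 0.857 against 1.12 and 2.04 against 2.27, and Gsta1 at 1.16 against 1.04 and 1.36 against 1.46. At least 2-fold higher were Gsta4 in set 0, beside 3.53% of all genes, and Gsta4 and Gstp2 in set 1, beside 4.6%. With Fabp1 of at least 40, these were again Gsta4 in set 0 (2.63% of all genes), and Gsta4 and Gstp2 in set 1 (4.02%), where Gstm3 was also 2-fold lower (log2 ratio -1.05, beside 4.3%). With a pseudocount of 0.1, Gsta4 in both sets and Gstm3 in set 1 fell short of 2-fold in these cells of Fabp1 of at least 40. The Gstp2 value of set 1, 1.84 CP10K in 27 cells against 0.590, turned to a log2 ratio of -1.04 under a stricter cell filter, and Gstp1+Gstp2 was lower in the same 27 cells. The median mitochondrial share of those cells was 10.4%, against 6.67% below a Fabp6 of 10, and its part in these values was not tested.

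Cells with Reg1+Ctrb1 above 20 were few (109 in set 0 and 133 in set 1) and held more of most members. Gstm3 was at 0.699 CP10K below 1, 2.40 at 1 to 20 and 3.48 above 20 in set 0, and at 1.34, 2.92 and 3.71 in set 1. Gstm1 was at 0.932, 2.05 and 2.43 in set 0 and at 2.14, 3.07 and 3.26 in set 1. For Gstm1 in set 1 the groups of 1 to 20 and above 20 did not separate, at 3.22 (3.12 to 3.32) and 3.17 (2.98 to 3.37) summed UMIs per 10000. Gsta1 was at 1.02, 1.29 and 1.91 CP10K in set 0 and at 1.39, 1.71 and 2.88 in set 1, and Gsta4 at 0.362, 0.311 and 0.523 and at 0.347, 0.40 and 0.771. Gstp1+Gstp2 was highest in the group of 1 to 20, at 16.7 in set 0 and 18.8 in set 1.

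As log2 ratios of the highest over the lowest group, Gstm3 was at 2.30 in set 0 and 1.46 in set 1, Gstm1 at 1.37 and 0.60, Gsta1 at 0.89 and 1.05, Gsta4 at 0.52 and 1.13, and Gstp1+Gstp2 at 0.38 and 0.37. At least 2-fold higher were Gstm1 and Gstm3 in set 0, beside 1.75% of all genes, and Gsta1, Gsta4 and Gstm3 in set 1, beside 0.84%. Gstm3 was the gene called in both. Within cells of Fabp1 above 100 the called genes were those same 2 in set 0 (1.91% of all genes) and those same 3 in set 1 (0.784%), with Gstm3 at 2.33 and 1.52. Fabp1 still varied there. With Fabp6 below 10, Gstm3 was at 2.39 CP10K at a Fabp1 of 100 to 150 and 0.471 at 300 to 400 in set 0. In set 1 it was at 2.73 and 0.978. The share of cells with Reg1+Ctrb1 of 1 or more was 27.0% and 8.14% in set 0, and 21.3% and 9.52% in set 1. The part of Fabp1 in these ratios was not tested. Of 6 listed pancreatic acinar markers other than Ctrb1, 2 had a column in the table, Cela1 and Cpa1. In the highest group Cpa1 was at 0 in both sets, and Cela1 was at 0.386 CP10K in set 0 and 0.118 in set 1, beside 0.650 and 0.154 in the lowest group.

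**Figure D3:**
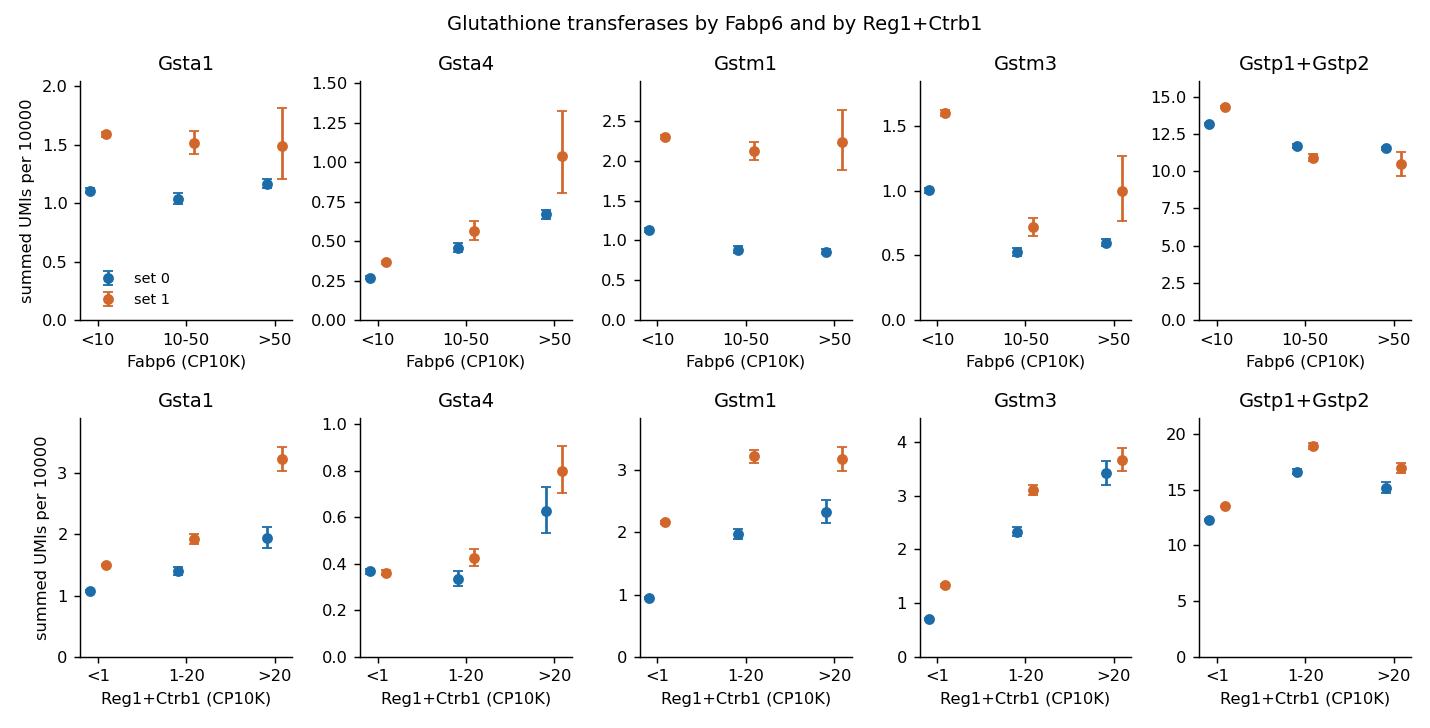
Summed UMIs per 10000 (vertical axes, from 0) of 4 members and of Gstp1+Gstp2 in the 3 groups of Fabp6 (top) and of Reg1+Ctrb1 (bottom), in set 0 (blue) and set 1 (orange), with 95% Poisson intervals. Gsta4 is higher with each step of Fabp6 in both sets, and Gstm3 with each step of Reg1+Ctrb1.

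**Figure D4:**
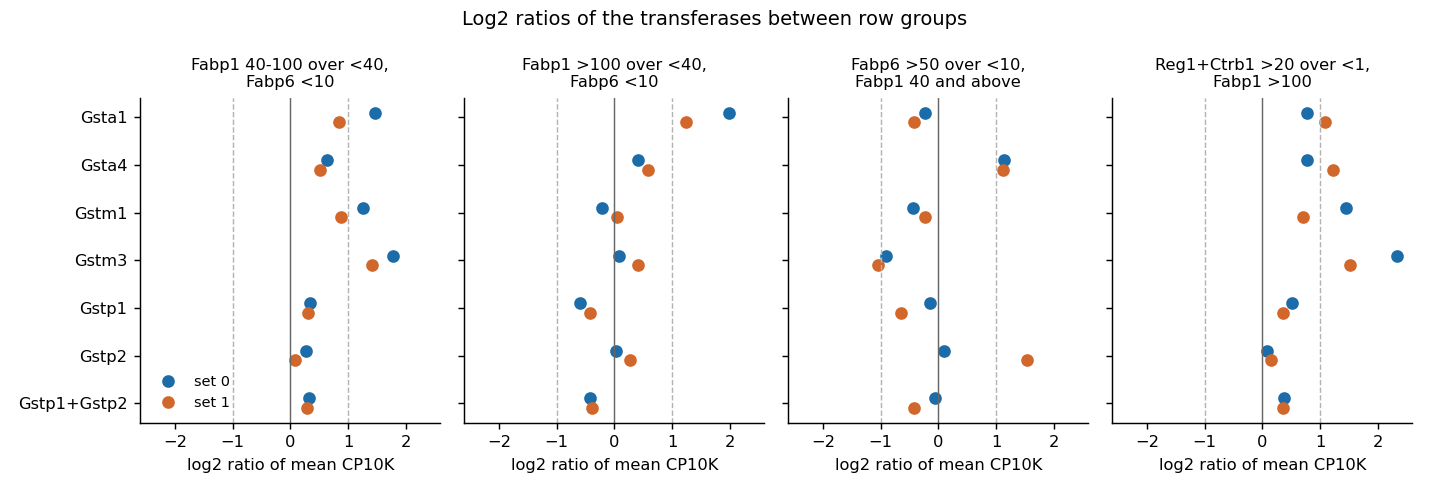
Log2 ratios of mean CP10K between row groups for each member and Gstp1+Gstp2 in set 0 (blue) and set 1 (orange), where dashed lines mark a 2-fold difference. From left to right, Gstm3 is at 1.78 and 1.41 in the middle over the low Fabp1 group, Gsta1 at 1.99 and 1.25 in the high over the low Fabp1 group, Gsta4 at 1.13 and 1.12 along Fabp6, and Gstm3 at 2.33 and 1.52 along Reg1+Ctrb1.

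Cells of the goblet gate held less of Gstp1+Gstp2 and Gstm3 than cells outside it. In this gate (at least 2 of 6 goblet markers at 5 CP10K or above, 128 and 56 cells) Gstp1+Gstp2 was at 9.17 CP10K in set 0 and 8.11 in set 1, against 12.4 and 13.9 outside the 3 gates. Gstm3 was at 0.312 and 0.486 there, against 0.888 and 1.59. In the endocrine gate (Chga plus Chgb of 5 or more, 23 and 17 cells) Gstp1+Gstp2 was at 5.91 and 7.60. The median UMI total of the goblet gate was 23360 in set 0 but 10686 in set 1, and its part in the values was not tested.

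Across single cells the mu- and pi-class genes were the most closely related. After thinning to 8000 UMIs, Spearman's rho between Gstm1 and Gstm3 was 0.38 in 5899 cells of set 0 and 0.45 in 5076 cells of set 1, between Gstm3 and Gstp1+Gstp2 0.38 and 0.43, and between Gstm1 and Gstp1+Gstp2 0.36 and 0.39. Gsta4 was at 0.07 and 0.08 with Gstm1. The cells of a set share 1 library, so these are descriptions only. Within the cells with Fabp1 of 40 to 100 the rho between Gstm1 and Gstm3 was 0.46 and 0.43.

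Over the 13 groups of Fabp1 by Fabp6 by set with at least 50 cells, Gstm1 and Gstm3 had a Pearson r of 0.92 on the log2 scale. For Gsta4 the r was -0.36 with Gstm1 and -0.38 with Gstm3. These values mix the sets, whose Gstm1 levels differ, and every group with Fabp6 above 50 came from set 0. Over the single cells of each set, rho of Gsta4 was 0.07 and 0.08 with Gstm1, and 0.06 and 0.06 with Gstm3. The genes most like Gsta1 over those groups were Pcyt2, an enzyme of phosphatidylethanolamine synthesis (r = 0.94), Pipox (0.93) and Clic5 (0.93). Gsta4 was most like Supt5 (0.95), Clptm1 (0.95) and Slc44a4 (0.95), and Gstm1 most like Nectin2, a cell adhesion protein (0.95), Rgn (0.95) and Thap4 (0.94). Gstm3 was most like Tysnd1 (0.95), its own family member Gstm2 (0.95) and Ccs, the copper chaperone of superoxide dismutase (0.93). Gstp1+Gstp2 was most like Commd7 (0.94), S100a10 (0.92) and Ccdc88c (0.92). These groups share libraries and cells of like depth.

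Of 22 other transferases with a column, Mgst3, a microsomal family member, had the highest mean (5.64 CP10K in set 0 and 8.13 in set 1), followed by Mgst1 (3.52 and 5.63), Gsto1 (3.21 and 3.54) and Gsta2 (2.80 and 2.83). From the low to the high Fabp1 group, Gsta2, an alpha-class enzyme, went from 0.682 to 4.24 in set 0 and from 0.697 to 4.44 in set 1, log2 ratios of 2.62 and 2.65. Of its 310 stretches, 36 were shared with the gene Gm10639. Gstm6 was at 1.26 and 1.17. In the middle over the low group within Fabp6 below 10, 15 of 15 measured genes of this list were above 0 in set 0 and 15 of 15 in set 1. Their median log2 ratio was 0.60 and 0.45, beside -0.05 and -0.05 over all genes. At least 2-fold higher were 3 and 1 of them, beside 1.86% and 1.48% of all genes. Over the middle-to-high step the list was evenly split, with 8 of 15 above 0 in set 0 and 9 of 15 in set 1. Along Fabp6, Mgst3 was lower, at 2.70 against 6.85 CP10K in set 0 and 4.03 against 8.33 in set 1. Along Reg1+Ctrb1, 6 of 17 measured genes in set 0 and 1 of 16 in set 1 were at least 2-fold higher and none lower. Of all genes, 1.75% and 0.84% were that much higher and 5.33% and 2.69% lower. The list's median was 0.55 and 0.57, beside -0.09 and -0.10 over all genes. The theta-class Gstt2 was called in both (log2 ratios 1.02 and 1.15).

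Among the genes that make, recycle and break down glutathione, 3 of 11 measured in set 0 were at least 2-fold higher and 2 lower at high over low Fabp1, and 3 of 10 and 1 in set 1. Of all genes, 4.94% were at least 2-fold higher and 12.3% lower in set 0, and 5.2% and 11.1% in set 1. The list's median was 0.13 and 0.29, beside -0.18 and -0.15 over all genes. Ggt1, the brush border enzyme that splits glutathione and its conjugates outside the cell, went from 0.616 to 2.76 CP10K in set 0 and from 0.707 to 2.91 in set 1. Dpep1, the dipeptidase that acts after it, was at log2 ratios of 1.40 and 2.02. Gsr, which reduces oxidised glutathione, was lower, at 0.463 against 1.19 CP10K in set 0 and 0.498 against 1.28 in set 1. With Fabp6 below 10, Gclm, the modifier subunit of the enzyme that starts glutathione synthesis, was at 1.31 and 1.02. Along Fabp6, Cth, which makes cysteine by transsulfuration, was lower (log2 ratios -1.31 and -2.13), where 5.1% and 9.85% of all genes were at least 2-fold lower.

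Of the conjugate exporters, 3 were measured, with a median log2 ratio along Fabp6 of 0.97 in set 0 and 0.55 in set 1, beside 0.05 and -0.05 over all genes. Abcc2, the apical pump for glutathione conjugates, was at 6.26 CP10K at Fabp6 above 50 against 1.66 below 10 in set 0, and at 5.46 against 1.75 in set 1. In cells with Reg1+Ctrb1 above 20 it was lower, at 0.725 against 3.06 in set 0 and 0.822 against 1.97 in set 1. Reg1+Ctrb1 of 1 or more was found in 1.35% of cells with Fabp6 above 50 and 11.6% below 10 in set 0. In set 1 these shares were 3.70% and 12.3%. The comparisons thus overlap, and no Reg1+Ctrb1 ratio was computed within Fabp6 below 10. Abcc2 was the 1 of 3 measured exporters past 2-fold in each of these comparisons. Along Fabp6, 3.53% and 4.6% of all genes were at least 2-fold higher. Along Reg1+Ctrb1, 5.33% of all genes in set 0 and 2.69% in set 1 were at least 2-fold lower.

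Of the other Nfe2l2 targets, 3 of 17 measured in set 0 and 3 of 16 in set 1 were at least 2-fold higher at high over low Fabp1, and 2 were lower in each, beside the 4.94% and 5.2% higher and the 12.3% and 11.1% lower of all genes. The list's median was 0.04 and 0.27, beside -0.18 and -0.15 over all genes. Me1, which supplies NADPH, was at log2 ratios of 1.77 and 1.84, Cbr1, a carbonyl reductase, at 1.15 and 1.38, and Prdx1, a peroxiredoxin, at -1.05 and -1.12. Along Reg1+Ctrb1, 2 of 18 measured in set 0 were at least 2-fold higher and 2 lower, and 2 of 17 and 0 in set 1. Of all genes, 1.75% and 0.84% were that much higher and 5.33% and 2.69% lower. The list's median there was 0.18 and 0.21, beside -0.09 and -0.10 over all genes. The genes higher in both sets were Nqo1, a quinone reductase, at 1.85 and 1.11, and Aldh1a1, a retinaldehyde dehydrogenase, at 2.28 and 1.02. The activity of Nfe2l2 was not tested.

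Among the peroxidases and glyoxalase genes that use glutathione or stand beside it, the members split by axis. Gpx2, the gastrointestinal glutathione peroxidase, was at 0.098 CP10K at high against 1.33 at low Fabp1 in set 0 and 0.026 against 0.933 in set 1. It was the 1 gene of 9 measured called lower in each set, beside 12.3% and 11.1% of all genes, and the list's median was 0.08 and 0.07. Along Fabp6, 7 of 9 measured genes were below 0 in set 0 and 6 of 9 in set 1. The list's median there was -0.34 and -0.49, beside 0.05 and -0.05 over all genes. In set 0, 1 gene was at least 2-fold higher and 1 lower, and in set 1, 1 and 2. Of all genes, 3.53% and 4.6% were that much higher and 5.1% and 9.85% lower. Prdx6 was lower, at log2 ratios of -1.06 and -1.66. Gpx3, the secreted peroxidase, was at 30.4 CP10K at Fabp6 above 50 against 7.42 below 10 in set 0, and at 10.4 against 3.18 in set 1. In cells with Reg1+Ctrb1 above 20 Gpx3 was at 0.819 against 14.7 and 0.389 against 3.70. It was the 1 gene of 9 measured called lower there in each set, beside 5.33% and 2.69% of all genes. The overlap of groups given for Abcc2 holds here too.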

How the data were processed

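The authors deposited 1 table of a linear signal per gene and cell, scaled so that each cell sums to 10000. Per the submitters' processing notes, the tools were alevin of Salmon 0.14.1 and Scanpy 1.6.0, with builds GRCm38 and mm10. Cell filters used by the authors were not given in these sources. The other genes used here are columns of the same deposited signal. From it, the most frequent non-zero value of each cell was taken as 1 UMI; in the median cell 94.9% of values were then whole within 0.01. Mean levels, UMI sums with 95% Poisson intervals, and shares of cells after thinning to 8000 UMIs were computed with Python 3.11.15, NumPy 2.4.6, SciPy 1.17.1 and pandas 2.3.3. Ratios used a pseudocount of 0.01 and were called at 2-fold where 1 or both group means reached 0.2 CP10K. No test was run, since cells of 1 library are not replicates. Doublets were not called; the 5% of cells with most UMIs were left out as an alternative. Gene positions and transcripts came from the GENCODE annotation of GRCm38. The recovery of the UMI value and the ratio formula were tried on simulated cells of whole counts, which held no divided UMIs. Named genes were the 6 members, list genes at least 2-fold apart the same way in both sets (at most 6 per list), and the 3 genes most like each member. The members and lists were chosen with earlier results of these data known.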

Additional observations from a re-analysis of the deposited data

How the results depend on the processing

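Of 128 member ratios (8 comparisons in 2 sets, with the sums of copies), 33 were at least 2-fold. The level minimum does not enter a ratio. Without the 5% of cells with most UMIs all 33 stayed so in the same direction, with summed UMIs 27 did, with a pseudocount of 0.1 25, with other group limits 26 of 28, with shared barcodes kept 30, and with a stricter cell filter (at least 1000 UMIs, 500 genes, at most 10% mitochondrial) 28. Leaving out cells with Reg1+Ctrb1 of 1 or more, chosen after the data were seen and run for the Fabp1 ratios within Fabp6 below 10, kept 11 of 12. Of these settings only the stricter filter reversed any: Gstp2 along Fabp6 in set 1 went to -1.04, and to -1.12 with Fabp1 of at least 40; the cause was not tested. The number of the 6 members past 2-fold moved as follows. For high over low Fabp1 in set 0 it went from 1 to 0 with summed UMIs and with a pseudocount of 0.1. Along Fabp6 a minimum mean of 1 took it from 1 to 0 in set 0 and from 2 to 1 in set 1. With Fabp1 of at least 40, it went in set 0 from 1 to 2 with totals without mitochondrial, ribosomal protein and haemoglobin genes, and to 0 with a pseudocount of 0.1 and a minimum mean of 1, and in set 1 from 3 to 1 with that pseudocount. In set 1, other group limits gave 2 in place of 1 for both middle-group ratios. There the middle over the high group gave 0 with summed UMIs, with totals without Fabp1, Fabp6, Reg1 and Ctrb1, with the stricter filter and with a pseudocount of 0.1. The summed mean of the 6 members, 15.9 CP10K in set 0 and 19.7 in set 1, was 11.2 and 14.9 as a sum of medians, 16.0 and 19.9 as summed UMIs, 16.5 and 20.6 under the stricter filter, 16.1 and 20.4 in cells below the median UMI total, 15.6 and 18.9 above it, and 19.2 in set 1 with shared barcodes kept. No paired analysis was possible because each group is 1 library and no result comes from a test.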

Other observations

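The 818 cells of set 1 whose barcodes set 0 also carried were outside every comparison. Of the 648 among them with at least 10 UMIs of Gstp1+Gstp2, 373 (57.6%) had none assigned to Gstp2, 130 (20.1%) had exactly 0.5 and 33 (5.09%) had all. Gstp2 took 18.48% of the pair's UMIs over all 818 cells, between the 3.61% of the rest of set 1 and the 26.4% of set 0. The mean level of Gstp1+Gstp2 over them was 12.8 CP10K.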
